A study of Mus musculus with 2 samples.

Results

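The genes examined here are 48 mouse genes of cardiac calcium handling and ion channels, listed by their function. Binding of VDR, the vitamin D receptor, a hormone-activated transcription factor, was assigned to them by position. A peak, that is a stretch of DNA enriched by immunoprecipitation of VDR, was assigned to a gene when its summit lay inside the RefSeq span of the gene or within 10 kb of either end. All 48 genes were found among 49943 RefSeq gene spans on the assembled chromosomes, of which 21887 were protein-coding. Their windows covered 8.37 Mb and held 86 of 23456 normal-diet peaks and 177 of 37661 deficient-diet peaks. No peak lay in the windows of more than 1 of the 48 genes.

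Chromatin came from the left ventricle of mouse embryos at E16.5, with 1 library from embryos of mothers on a normal diet and 1 library from embryos of mothers on a diet deficient in vitamin D. The labels give no strain, genotype or sex, and they do not say how many embryos were pooled or for how long the diets were fed. With 1 library for each diet there is no spread between replicates, no p-value was computed, and every comparison is one of libraries and not of diets. The labels name a tissue and no cell type, so binding in cardiomyocytes and in other cells of the wall cannot be told apart. The files hold peaks alone, so the tissue could not be checked against marker genes.

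In heart muscle, an action potential opens L-type calcium channels, and the entering calcium opens ryanodine receptors of the sarcoplasmic reticulum, the intracellular calcium store. The calcium pump of the store and the sodium-calcium exchanger of the cell membrane then remove calcium so that the cell relaxes. Potassium channels end the action potential, pacemaker channels start it in conducting tissue, and gap junctions pass it from cell to cell.

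The libraries differed in background. Read counts were not available, so depth itself could not be compared. The genome-wide background recovered from the deposited values was 2.65 fragments in the normal-diet library, and with 5.38 fragments the deficient-diet library had 2.03 times as much. A summit had to reach more fragments in the deficient-diet library to be listed, and a lower fold over background was then enough, so counts of peaks in the lists were not compared as amounts of binding.

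Promoters could be examined for only part of the 48 genes, and the share of all RefSeq promoters covered by a peak was not computed. RefSeq promoter sequences (assembly GRCm38.p6, the build of the peak coordinates, mm10) were matched for 34 of the 48 genes, with 42 promoters. Itpr1, Trdn, Asph, Jph1, Atp2a2, Sln, Cacna1g, Cacna1h, Calm2, Camk2a, Camk2g, Kcnq1, Kcnj11 and Kcne1 were not matched. Of these 42 RefSeq promoters, only those of Orai1 and Hcn4 had a peak over the 250 bases before the start or the 50 after it, in both cases a normal-diet peak with no overlapping deficient-diet peak. The 250 bases before each start are printed because they are the promoter bases that carry a peak, with the bases inside the peak in capitals.
Orai1, chr5:123014824-123015073, plus strand: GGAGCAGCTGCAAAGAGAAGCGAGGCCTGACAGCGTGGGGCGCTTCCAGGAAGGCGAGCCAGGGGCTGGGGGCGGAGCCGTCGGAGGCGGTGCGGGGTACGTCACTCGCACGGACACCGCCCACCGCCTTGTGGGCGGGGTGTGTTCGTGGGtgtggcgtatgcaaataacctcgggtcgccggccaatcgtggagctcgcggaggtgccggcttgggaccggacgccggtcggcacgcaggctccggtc
Hcn4, chr9:58822699-58822948, plus strand: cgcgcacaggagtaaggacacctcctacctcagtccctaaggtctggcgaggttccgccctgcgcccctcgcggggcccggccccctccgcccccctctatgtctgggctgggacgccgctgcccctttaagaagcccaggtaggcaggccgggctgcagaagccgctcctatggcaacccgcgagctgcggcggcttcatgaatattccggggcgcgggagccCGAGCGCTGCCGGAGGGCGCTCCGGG

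The Orai1 peak covered 152 of these bases and had its summit 265 bp before the start, with a pileup, the number of fragments over the summit, of 13. The Hcn4 peak covered 26 of them and ran on into the gene, with its summit 100 bp after the start and a pileup of 18. Both stretches were rich in G and C, at 70.8% for Orai1 and 71.2% for Hcn4, where the median over all 32851 RefSeq promoters was 52.4% and over the 42 promoters of these genes 64%. Matches were searched on both strands. The Orai1 stretch held GGGCGG, the GC box bound by Sp1, at 3 places, all inside the peak. The Hcn4 stretch held it at 2 places, both outside the peak.

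At 2 further genes a summit lay just after the start without reaching the promoter bases. These were Kcnd2, which had the highest -log10 q among summits near an end of any of the 48 genes, and Itpr2, the only one with overlapping peaks of both lists near an end. Their promoters are printed with matches to the searched motifs in capitals.
Kcnd2, chr6:21215096-21215345, plus strand: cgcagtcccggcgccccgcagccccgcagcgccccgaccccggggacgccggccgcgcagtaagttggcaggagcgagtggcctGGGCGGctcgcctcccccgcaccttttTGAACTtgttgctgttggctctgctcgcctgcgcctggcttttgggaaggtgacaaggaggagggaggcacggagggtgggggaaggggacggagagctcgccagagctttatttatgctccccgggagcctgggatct
Itpr2, chr6:146502224-146502473, minus strand: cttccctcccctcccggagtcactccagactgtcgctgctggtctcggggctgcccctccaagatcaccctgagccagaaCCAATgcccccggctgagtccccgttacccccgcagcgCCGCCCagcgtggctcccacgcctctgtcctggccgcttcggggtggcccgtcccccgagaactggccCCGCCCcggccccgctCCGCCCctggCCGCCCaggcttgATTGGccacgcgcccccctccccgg

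The VDR element is a direct repeat of a hexamer. The hexamers searched were AGGTCA in its usual form, its variant GGGTCA with another first base, and the forms AGTTCA as well as GGTTCA, and the repeat search overlaps with these since it is built from such hexamers. The Kcnd2 stretch held AGTTCA once, on the opposite strand, beginning 139 bases before the start, and GGGCGG once. The Itpr2 stretch held GGGCGG at 4 places and CCAAT at 2 places, all but 1 of these on the opposite strand. None of the hexamers was in the 250 bases of Orai1, Hcn4 or Itpr2. Over all promoters, 38.6% held at least 1 hexamer, 32.7% GGGCGG and 33.8% CCAAT. Of the 42 promoters of these genes, 12 (28.6%) held a hexamer, 26 (61.9%) GGGCGG and 10 (23.8%) CCAAT. The full repeat with a spacer of 3 bases (DR3) was in 0.0396% of all promoters and in none of the 42. The CTCF core was in 0.874% of all promoters and the CArG box in 1.47%, and neither was in the 42. The MEF2 site was in 1.69% of all promoters and in 1 of the 42, that of Casq2. The letters AGATAA, bound by factors of the GATA family, were in 9.99% of all promoters and in 4 of the 42, and the E-box CACGTG was in 6.02% and in 2 of the 42. These are matches of letters in a window and not measured binding sites.

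Most of the 48 genes had a VDR peak in their window. A normal-diet peak was found at 35 genes (72.9%, 95% interval 58.2 to 84.7%), against 49.8% of all protein-coding genes. A deficient-diet peak was found at 39 genes (81.2%, 67.4 to 91.1%), against 59.5%. Both lists had a peak at 33 genes (68.8%, 53.7 to 81.3%), against 40.7%. These intervals are exact binomial ones and cover counting error only. Long genes hold more peaks by length alone, and 15 of the 48 spans were 200 kb or longer. At the shares seen in protein-coding genes of the same length class, 29.6 of the 48 would have had a normal-diet peak, 34.1 a deficient-diet peak and 25.8 both. All 3 intervals include the class values, which are 61.6%, 71% and 53.8%, the last only just.

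**Figure D1:**
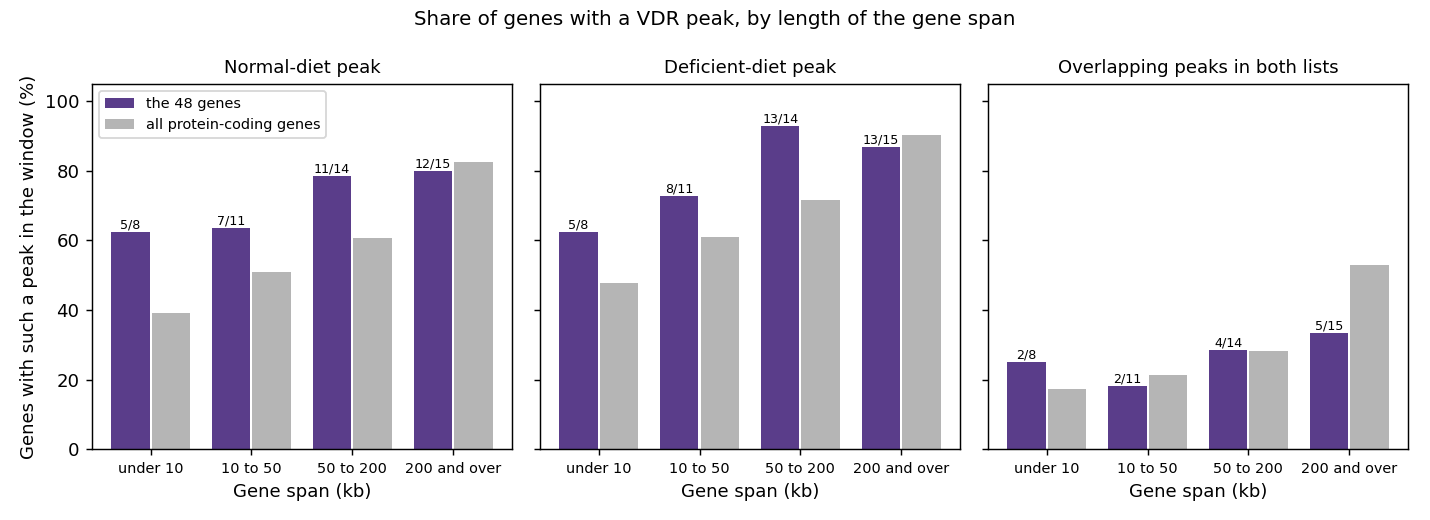
Bars give the percentage of genes with a normal-diet peak, a deficient-diet peak, or overlapping peaks of both lists, by length of the gene span in kb, for the 48 genes (purple, with the number of genes above) and all protein-coding genes (grey). The 48 genes stood above protein-coding genes of the same length for single lists in every class under 200 kb and below them in the class of 200 kb and over; for overlapping peaks the class of 200 kb and over had 33.3% against 52.8%.

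By length class, the shares of genes with a peak were above those of other genes under 200 kb and not above 200 kb, though with 8 to 15 genes in a class. With spans of 50 to 200 kb, 13 of 14 genes (92.9%) had a deficient-diet peak, against 71.6% of protein-coding genes of that class, and 11 (78.6%) had a normal-diet peak, against 60.6%. With spans of 200 kb and over, 13 of 15 (86.7%) had a deficient-diet peak, against 90.2%, and 12 (80%) a normal-diet peak, against 82.4%. Trdn and Kcna5 had a normal-diet peak alone, and Ryr2, Hrc, Atp2a2, Cacnb2, Camk2a and Kcnj3 a deficient-diet peak alone. These 2 genes are 4.17% of the 48, against 9.17% of protein-coding genes, and the other 6 genes 12.5%, against 18.8%. Neither list had a peak at Casq1, Pln, Sln, Atp2b1, Camk2d, Kcnj2 and Gja1, which are 14.6% of the 48 (6.07 to 27.8%), against 31.3%. The length classes give 7.84%, 17.3% and 21.1% for these 3 groups.

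The number of peaks was above that of other genes of like length in the deficient-diet list. The windows held 177 deficient-diet peaks (exact Poisson 95% interval 152 to 205), where the density in protein-coding genes of the same length class gives 111, a ratio of 1.6. For the normal diet they held 86 (68.8 to 106), where the classes give 69.6, a ratio of 1.24. The class value lies outside the deficient-diet interval and inside the normal-diet one. The intervals cover counting error and treat peaks as independent, which peaks close together in 1 gene may not be. Restricted to peaks of -log10 q 5 or more, 31 deficient-diet and 29 normal-diet peaks remained, and the ratios were 1.21 and 1.22. With the deficient-diet list cut to the length of the other, its 106 peaks at these genes were 1.55 times the class value. In the class of 200 kb and over, where the share of genes with a peak was not higher, the density of deficient-diet peaks was 1.24 per 100 kb (0.974 to 1.55), against 0.939. At a fold enrichment of 4 or more the deficient-diet ratio fell to 1.04, with 14 peaks.

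The peaks were spread unevenly. In the deficient-diet list the 5 genes with most peaks, Cacna1d, Atp2b2, Camk2b, Itpr3 and Kcnq1, held 60 of the 177 (33.9%), and the median gene had 3. In the normal-diet list Cacna1d, Cacna1g, Cacna1h, Atp2b2 and Calm3 held 28 of the 86 (32.6%), and the median gene had 1. More deficient-diet than normal-diet peaks were listed at 27 genes (56.2%, 41.2 to 70.5%), against 38.4% of protein-coding genes and 47.1% from the length classes, and more normal-diet peaks at 4, Trdn, Orai1, Calm2 and Kcna5 (8.33%, against 16.7% and 17.5%). Deficient-diet peaks made up 67.3% (61.3 to 72.9%) of all peaks at the 48 genes and 61.3% of those in windows of all protein-coding genes, a value at the lower bound of the interval. At a -log10 q of 5 or more these shares were 51.7% and 51.5%. At a fold enrichment of 4 or more they were 17.7% and 19.7%. With the deficient-diet list cut to the length of the other, they were 55.2% and 49.1%.

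**Figure D2:**
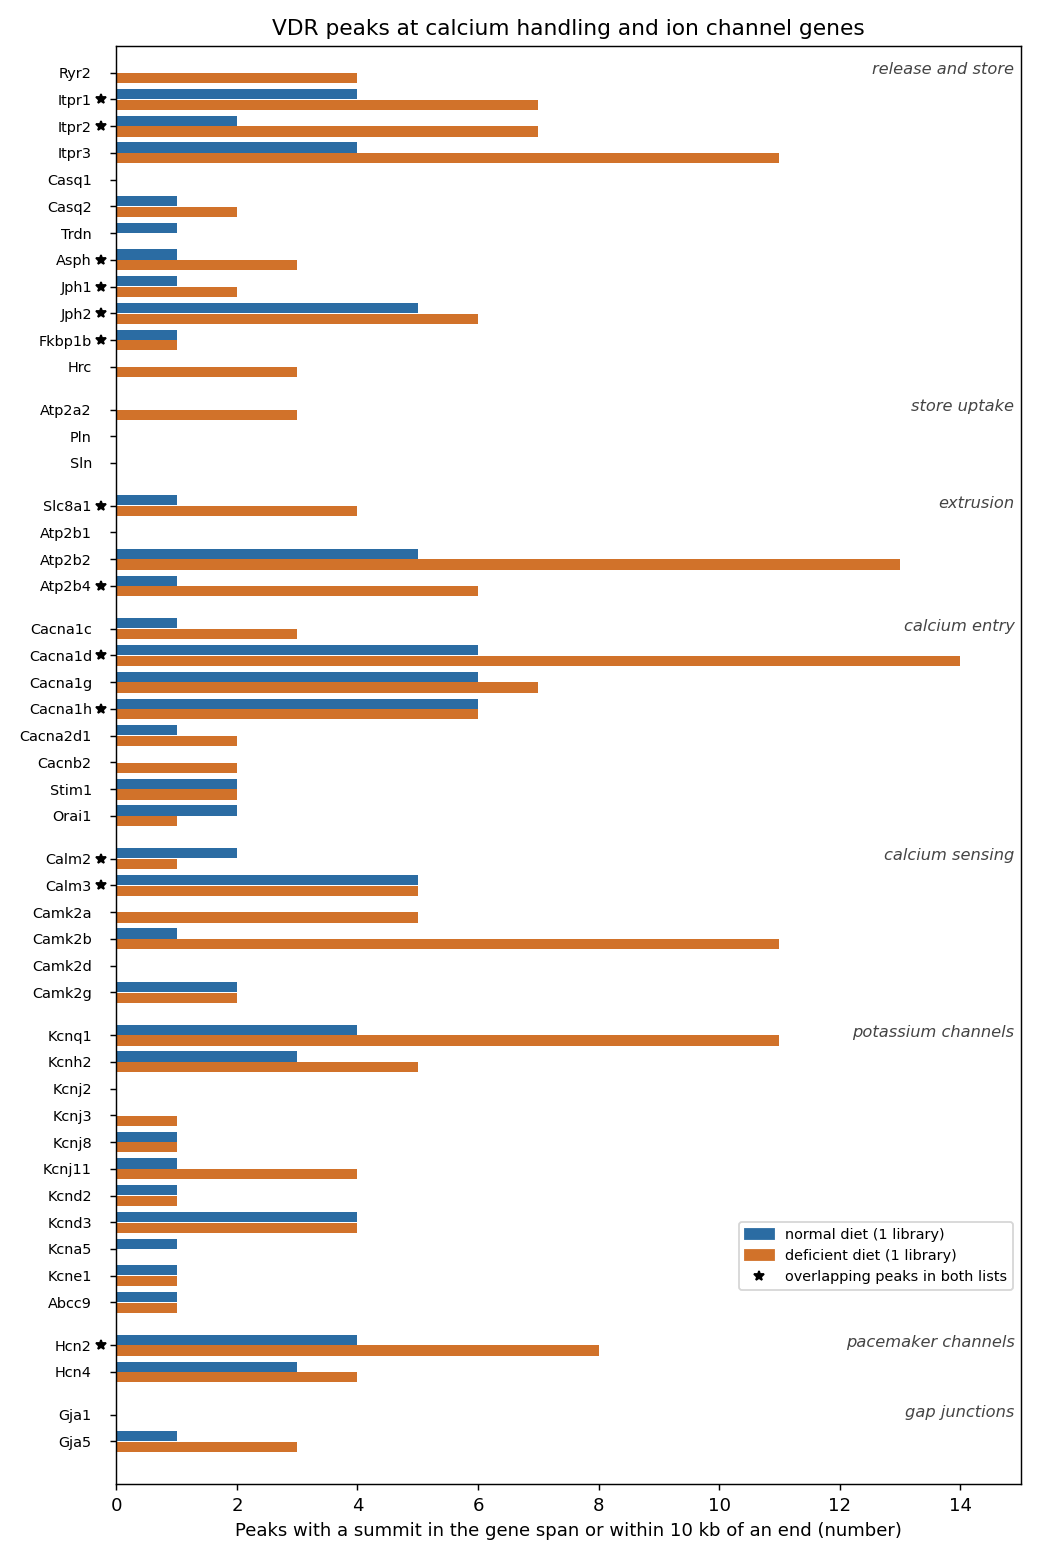
Bars give, for each of the 48 genes grouped by role, the number of peaks with a summit in the gene or its 10 kb flanks in the normal-diet (blue) and deficient-diet (orange) list, 1 library each. Stars mark the 13 genes with overlapping peaks of both lists; Cacna1d had the most peaks in the deficient-diet list, 14, and none of the potassium channel genes has a star.

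Few of these peaks were found at the same place in both libraries. Peaks of both lists overlapped by at least 1 bp at 13 genes (27.1%), against 22.6% of protein-coding genes. The length classes give 15.6 genes. Of the normal-diet peaks at the 48 genes, 20 (23.3%, 14.8 to 33.6%) overlapped a deficient-diet peak, against 30.5% in windows of all protein-coding genes, a value inside the interval. Of the deficient-diet peaks, 20 (11.3%, 7.04 to 16.9%) overlapped a normal-diet peak, against 19.4%, above the interval. With the deficient-diet list cut to the length of the other, the deficient-diet share was 11.3% as before and the normal-diet share fell to 14%. The overlapping peaks formed 19 sites of 191 to 596 bp, with the closest summits of the lists 6 to 186 bp apart (median 83). Inside the span of the gene lay 12 of these sites. Of the 7 outside, 5 lay in the span of another protein-coding gene, namely Chdh, Ptgir (2 sites), Sf3b6 and Polrmt, so the gene such a site acts on is not given by its position.

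Store and release genes held 8 of the 19 sites, in 6 of their 12 genes, where 22.6% of protein-coding genes had overlapping peaks. That share was 28.2% for protein-coding genes of 50 to 200 kb and 52.8% for those of 200 kb and over. Most of the 12 genes belong to these length classes. The 12 genes made up 2.5 of the 8.37 Mb of window and held 20 of the 86 normal-diet and 46 of the 177 deficient-diet peaks. Ryr2, the cardiac ryanodine receptor, had no normal-diet peak in its 554 kb span or flanks, and the nearest normal-diet summit lay 50792 bp away. It had 4 deficient-diet peaks, with pileups of 19 to 25, 1 of them 939 bp inside the 5′ end at chr13:12105984-12106145 with a pileup of 25 over a background of 6.92. In protein-coding genes of the same length class, 43.5% had as many deficient-diet peaks. The inositol trisphosphate receptors, which release stored calcium in response to hormones, had peaks in both lists. Itpr1 had 4 normal-diet peaks with pileups of 15 to 18 and 7 deficient-diet peaks with pileups of 20 to 26, and shared 2 sites, at chr6:108272006-108272574 and chr6:108403336-108403620. Itpr2 had 2 and 7 peaks and shared the site next to its start, at chr6:146501815-146502170, with a pileup of 16 (normal diet) and 19 (deficient diet). Its summits lay 253 and 185 bp after the RefSeq start whose promoter is printed above. Itpr3 had 4 normal-diet peaks (pileups 14 to 17) and 11 deficient-diet peaks (17 to 25), none overlapping. Only 2.86% of protein-coding genes of its class had as many deficient-diet peaks.

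The junctophilins tie the store to the cell membrane, and both had shared sites. Jph2, the main form in heart, had 5 normal-diet peaks, with pileups of 14 to 19, and 6 deficient-diet peaks, with pileups of 21 to 23. Its 2 shared sites lay inside the gene. At chr2:163376017-163376552 the normal-diet peak had a -log10 q of 6.98, higher than 87.7% of its list, and the deficient-diet peak 4.81, higher than 66.3% of its list. At chr2:163339697-163339998 the values were 5.51 and 4.81, with summits 18 bp apart. Both were among the sites with background at the genome-wide level in both libraries. Jph1 had 1 normal-diet and 2 deficient-diet peaks and shared a site at chr1:17091530-17091927, 6248 bp from an end of the span by the normal-diet summit, with pileups of 16 and 21.

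The proteins that bind calcium inside the store or modulate the ryanodine receptor differed among themselves. Asph, whose locus encodes junctin as well as an enzyme, shared a site at chr4:9586213-9586569, with pileups of 14 and 20, and had 1 normal-diet and 3 deficient-diet peaks. Fkbp1b, a subunit of the ryanodine receptor complex, had 1 peak in each list, and they overlapped at chr12:4826039-4826325, 6974 bp downstream of the gene by the normal-diet summit and inside Sf3b6. Casq2, the cardiac calsequestrin, had 1 normal-diet peak with a pileup of 14 and 2 deficient-diet peaks with pileups of 20 and 23, not overlapping. Trdn, triadin, had 1 normal-diet peak with a pileup of 18 and no deficient-diet peak within 10 kb, the nearest being 15172 bp away. Hrc, a calcium-binding protein of the store lumen, had 3 deficient-diet peaks, all outside its 3.71 kb span and inside Trpm4 or Ppfia3. Casq1, the calsequestrin of skeletal muscle, had none, and its nearest normal-diet summit lay 11826 bp away, just beyond the window.

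Of the store uptake genes, Atp2a2 alone had peaks. Atp2a2, which encodes the calcium pump of the store, had no normal-diet peak in its window, with the nearest summit 14004 bp away. It had 3 deficient-diet peaks, 8473 to 9719 bp beyond an end, with pileups of 20 to 25, and 2 of them lay inside Anapc7. No summit of either list lay in the Atp2a2 span itself. Pln and Sln, small proteins that inhibit the pump, had no peak, and their nearest summits lay 33262 bp (Pln) and 78063 bp (Sln) away, both in the deficient-diet list. Among protein-coding genes under 10 kb, the class of Pln and Sln, 43.7% had no peak in either list. The windows of the 3 uptake genes cover 0.121 Mb and held 0 normal-diet peaks, with an interval up to 3.06 per 100 kb, and 2.49 deficient-diet peaks per 100 kb (0.513 to 7.27), where all 48 genes had 2.11.

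Of the genes that move calcium out of the cell, Slc8a1, the sodium-calcium exchanger, had 1 normal-diet peak with a pileup of 17 and 4 deficient-diet peaks with pileups of 22 to 28. Its shared site, at chr17:81684121-81684466, lay 54109 bp inside the 5′ end. The deficient-diet peak there had a pileup of 26 over a background of 10.7, which is 1.98 times the genome-wide value and the highest background at any peak of the 48 genes, and a -log10 q of 2.43, higher than 2.62% of its list. The deficient-diet peak of Slc8a1 at chr17:81716536-81716706 had a -log10 q of 6.37 and no partner. At the shared site the normal-diet peak had a background at the genome-wide value. Atp2b4, a calcium pump of the cell membrane, had 1 normal-diet peak with a pileup of 12 and 6 deficient-diet peaks with pileups of 20 to 28. They shared chr1:133788604-133789073 by an overlap of 25 bp. The normal-diet peak there had a -log10 q of 2.72, higher than 2.66% of its list. The other peaks of Atp2b4 had no partner. The Atp2b4 peak, at chr1:133765640-133765824, had a -log10 q of 7.59, shared with a Cacna1d peak as the highest of the deficient-diet peaks at these genes, with a pileup of 28 and no partner. Atp2b2, a pump known best from neurons and hair cells, had 5 normal-diet and 13 deficient-diet peaks, none overlapping, and 5.15% of coding genes of its class had as many deficient-diet peaks. A normal-diet summit lay 79 bp before its span, but the RefSeq promoters of Atp2b2 in the table used here begin inside the span and do not reach that peak. Atp2b1 had no peak in either list.

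Calcium entry genes held 4 shared sites, at Cacna1d and Cacna1h. Cacna1c, the main L-type channel of ventricular muscle, had 1 normal-diet peak in a 610 kb span, with a pileup of 15, and 3 deficient-diet peaks, with pileups of 20 to 23, none overlapping. Of protein-coding genes in its class, 82.4% had as many normal-diet peaks and 59.1% as many deficient-diet peaks. Cacna1d, an L-type channel known from the sinoatrial node, had 6 normal-diet peaks (pileups 15 to 19) and 14 deficient-diet peaks (18 to 28). It shared 1 site inside the gene, at chr14:30423433-30423862, with a -log10 q of 6.22 (normal diet) and 5.29 (deficient diet), and 1 beyond the gene inside Chdh. The strongest of its deficient-diet peaks had no partner, with a -log10 q of 7.59.

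The T-type channels, expressed in the embryonic ventricle and in pacemaker tissue, had 6 or 7 peaks in each list. Cacna1h had 6 peaks in each list, with pileups of 17 to 20 for the normal and 18 to 22 for the deficient diet, and 2 shared sites, at chr17:25368318-25368508 beyond the gene and chr17:25432957-25433182 inside it, with summits 8 and 31 bp apart. At the site inside Cacna1h the deficient-diet peak had a -log10 q of 2.49, higher than 3.97% of its list. Cacna1g had 6 normal-diet and 7 deficient-diet peaks, none overlapping. Its normal-diet peak at chr11:94443284-94443485 had a -log10 q of 8.67 with a pileup of 21, the joint highest at these genes with that of Kcnd2. As many normal-diet peaks as at either gene were found at 4.25% of protein-coding genes of their class, and as many deficient-diet peaks at 8.19% (Cacna1g) and 11.1% (Cacna1h).

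The channel subunits and store-operated entry genes had fewer peaks. Cacna2d1 had 1 normal-diet peak, of -log10 q 8.29 with 21 fragments at its summit, and 2 deficient-diet peaks, the nearer 354 bp from it without overlap. Cacnb2 had 2 deficient-diet peaks alone, with pileups of 20 and 26. Stim1, the calcium sensor of the store, had 2 peaks in each list, none overlapping. Orai1, the membrane channel that Stim1 opens, had 2 normal-diet peaks, including the promoter peak described above, and 1 deficient-diet peak inside the gene, 1195 bp from its end, with a pileup of 22.

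Among the calcium sensors, the calmodulin genes had shared sites and the kinase genes had none. Calm2 had 2 normal-diet peaks and 1 deficient-diet peak and shared chr17:87452574-87452985, outside the gene, with a -log10 q of 7.80, higher than 92.6% of the normal-diet list, and 5.29. This was the strongest of the 20 shared normal-diet peaks. Calm3 had 5 peaks in each list, with pileups of 14 to 18 and 19 to 23, at a density of 17.4 peaks per 100 kb of window in both, the highest of the 48 genes for the normal diet. Its 2 shared sites, at chr7:16907376-16907635 and chr7:16908685-16909181, lay downstream inside Ptgir, so all of the overlap counted at Calm3 lies in another gene.

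Camk2d, the main cardiac form of the calcium and calmodulin dependent kinase, had no peak within 10 kb of its 251 kb span, and the nearest summits lay 231691 bp (normal diet) and 231488 bp (deficient diet) away. In its class, 5.45% of protein-coding genes had no peak in either list. Camk2b and Camk2a, the forms most abundant in brain, had 11 and 5 deficient-diet peaks against 1 and 0 normal-diet peaks. For Camk2b the deficient-diet pileups ranged from 19 to 29 and the normal-diet pileup was 17. As many deficient-diet peaks were found at 2.86% of the coding genes of its class. Camk2g had 2 peaks in each list, none overlapping.

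**Figure D3:**
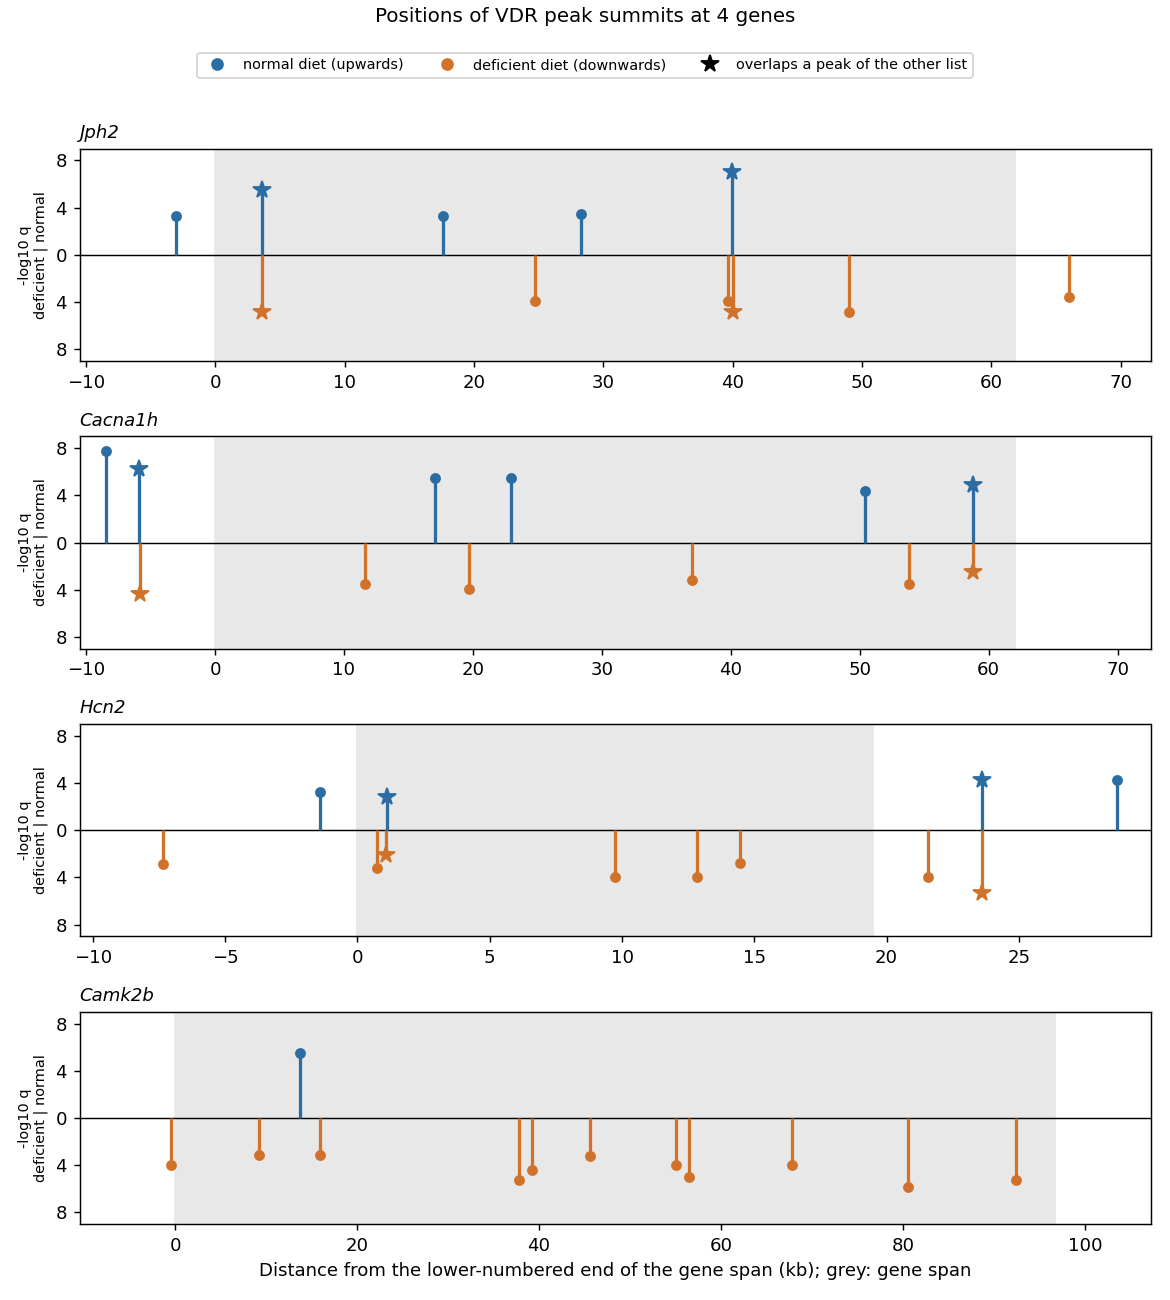
Vertical lines mark summits along Jph2, Cacna1h, Hcn2 and Camk2b, by distance in kb from the lower-numbered end of the span (grey), with the -log10 q of the peak as height, upwards for the normal-diet and downwards for the deficient-diet list; stars mark peaks that overlap one of the other list. Jph2, Cacna1h and Hcn2 each have 2 shared sites, while Camk2b has 1 normal-diet and 11 deficient-diet peaks and no shared site.

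The potassium channel genes, which set repolarisation and resting potential, had peaks but no shared site. Of the 11 genes, 9 had a normal-diet peak, 9 a deficient-diet peak and 8 both. Among all protein-coding genes these shares were 49.8%, 59.5% and 40.7%. They rose with length, from 39.1%, 47.8% and 30.6% under 10 kb to 82.4%, 90.2% and 78.1% at 200 kb and over. The 11 genes fall in all 4 length classes. The potassium channel genes held 17 normal-diet and 29 deficient-diet peaks, and none overlapped, where 30.5% and 19.4% of the peaks in windows of all protein-coding genes did. Kcnq1, the channel of the slow delayed rectifier, had 4 normal-diet peaks (pileups 16 to 21) and 11 deficient-diet peaks (16 to 26), of which 1 lay 50 bp inside an end of the span. Kcne1, its partner subunit, had 1 peak in each list, 3240 and 1467 bp outside the span. Kcnh2, the channel of the rapid delayed rectifier, had 3 normal-diet peaks, all inside the gene, and 5 deficient-diet peaks, of which 3 lay upstream, the strongest 5268 bp before the span with a -log10 q of 5.29. Kcnd2, a channel of the transient outward current, had the normal-diet peak 144 bp after its start at chr6:21215423-21215642, with a pileup of 21 and a -log10 q of 8.67, higher than 95.3% of the list. Its 1 deficient-diet peak lay deep in the gene, 178974 bp from an end. Kcnd3 had 4 peaks in each list, with pileups of 15 to 17 and 20 to 26. Its strongest deficient-diet peak had a -log10 q of 6.37, and its normal-diet summit nearest the start lay 638 bp upstream.

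The inward rectifiers ranged from no peak to 4. Kcnj2, the main channel of the resting potential, had none, with the nearest summit 106799 bp away. Kcnj3, an atrial acetylcholine-gated channel, had 1 deficient-diet peak with a pileup of 25. Kcnj8 and Abcc9 together form a channel closed by ATP, and both genes lie on chromosome 6. Kcnj8 had 1 peak in each list inside its 6.78 kb span, with pileups of 18 and 26, but 3979 bp apart. Abcc9 had a normal-diet peak 954 bp upstream, with a -log10 q of 6.98, and a deficient-diet peak inside the gene. Kcnj11 had 1 normal-diet peak, in the gene, and 4 deficient-diet peaks in its flanks, 1 of them inside Abcc8, which gave 16.8 deficient-diet peaks per 100 kb. Kcna5 had 1 normal-diet peak, 3872 bp upstream, with a pileup of 20, and the nearest deficient-diet summit lay 17728 bp away.

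The pacemaker channel genes had the densest peaks of the role groups, with 7.02 normal-diet peaks per 100 kb (2.82 to 14.5) and 12 deficient-diet peaks per 100 kb (6.22 to 21), over windows of 0.0997 Mb. Protein-coding genes of their length class had 2.01 and 3.13. Hcn2 had 4 normal-diet peaks, with pileups of 13 to 16, and 8 deficient-diet peaks, with pileups of 18 to 24, which made 10.1 and 20.3 peaks per 100 kb. Inside its span lay 1 of the normal-diet and 5 of the deficient-diet peaks, and some of the flank peaks lay inside Polrmt or Bsg. As many deficient-diet peaks as the 8 at Hcn2 were found at 1.32% of coding genes of its class. Its 2 shared sites had the closest summits of all, 6 bp apart at chr10:79717639-79717898, 1104 bp inside the gene by the normal-diet summit, and 7 bp apart at chr10:79740181-79740418, inside Polrmt. At the site inside Hcn2 the deficient-diet peak had a -log10 q of 2.09, near the floor of the list, with a background 1.44 times the genome-wide value. Hcn4, the main pacemaker channel of the sinoatrial node, had 3 normal-diet peaks, including the one at its start, and 4 deficient-diet peaks, none overlapping. The deficient-diet summit nearest the start lay 1017 bp inside the gene, with a pileup of 20.

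Of the gap junction genes, Gja1, the main connexin of the working ventricle, had no peak, with the nearest summit 66885 bp away. Gja5, a connexin of atrium and conducting tissue, had 1 normal-diet peak with a pileup of 14 and 3 deficient-diet peaks with pileups of 19 to 24. The normal-diet summit and the nearest deficient-diet one lay 541 bp apart without overlap.

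Near gene ends the 48 genes had about as many peaks as other genes. Within 1 kb of an end, 9 genes had a normal-diet summit (18.8%, against 18.5% of protein-coding genes) and 9 a deficient-diet summit (18.8%, against 21.9%), which made 16 genes in either list (33.3%, against 32%). Only Itpr2 and Itpr3 were in both groups (4.17%, against 8.41%), and at Itpr3 the normal-diet summit was at the 3′ end and the deficient-diet summit at the 5′ end. For the 9 genes of the normal-diet list, 7 of 10 such peaks lay at the 5′ end, namely at Kcnd2, Hcn4, Atp2b2, Orai1, Itpr2, Kcnd3 and Abcc9. In the deficient-diet list 4 of 10 peaks were at a known 5′ end, at Itpr2, Hcn2, Itpr3 and Ryr2, 3 were at the 3′ end of Kcnh2, Calm3 and Camk2b, and 3 were at an end of Cacna1g or Kcnq1, whose strand the tables used here do not give. Cutting the deficient-diet list to equal length left 4 such genes, and among peaks of -log10 q 5 or more there were 0, against 5 for the normal diet. Shares of all protein-coding genes were not computed at these settings or for the 5′ and 3′ ends apart. These counts are therefore not read as a trait of the 48 genes.

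Most peaks lay inside the genes, but their share was below that of the window length. Inside the spans were 62 of 86 normal-diet peaks (72.1%, 61.4 to 81.2%) and 141 of 177 deficient-diet peaks (79.7%, 73.0 to 85.3%), while the spans made up 88.6% of the window length. Per 100 kb, the spans held 0.836 and 1.9 peaks and the flanks 2.51 and 3.76. Of the flank peaks, 10 of 24 and 18 of 36 were inside another protein-coding gene. The densities in spans and flanks of all protein-coding genes were not computed. Nor was the share of their flank peaks inside another gene.

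The peaks at these genes were of ordinary or low strength for their lists. Normal-diet pileups ranged from 12 to 21 with a median of 16, equal to that of the whole list, and deficient-diet pileups from 16 to 29 with a median of 21, against 22. The strongest ranked 890 among all normal-diet and 1280 among all deficient-diet peaks. A -log10 q above the list's median was found for 48.8% (37.9 to 59.9%) of the normal-diet peaks at these genes, against 50% of the list, and for 39% (31.8 to 46.6%) of the deficient-diet peaks, against 48.3%. Background was at the genome-wide value in 61.6% and 60.5% of the peaks, against 52.6% and 55.7% of all peaks of the lists. It was at most 1.94 and 1.98 times that value at these genes.

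**Figure D4:**
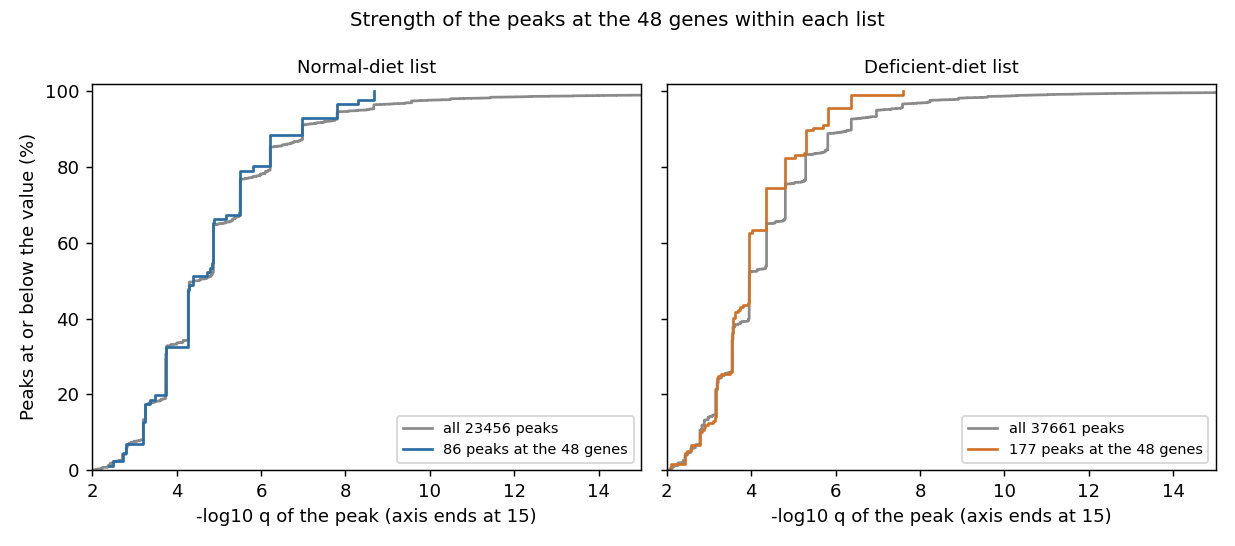
Curves give the percentage of peaks at or below each -log10 q for the peaks at the 48 genes (coloured) and all peaks of the same list (grey), with the normal-diet list on the left and the deficient-diet list on the right; the axis ends at 15. The normal-diet curves run close together with medians of 4.39 and 4.49, while the deficient-diet peaks at these genes have equal medians of 3.95 but fewer high values, with 17.5% at a -log10 q of 5 or more against 24.3% of the list.

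The same counts were made for 68 other genes of the pathway. A normal-diet peak was found at 46 (67.6%) and a deficient-diet peak at 53 (77.9%), where the length classes give 37.4 and 44.1 genes. Overlapping peaks were found at 21 (30.9%), where the classes give 17.6. Among those with the highest -log10 q at a shared site were Kcnj12 and Gja3, an inward rectifier and a connexin, both with 6.98 in the normal-diet list. Adrb1, the main adrenergic receptor of cardiac muscle, had 6.96 in the deficient-diet list. Cacnb3, a calcium channel subunit, had 6.37 in the deficient-diet list.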

How the data were processed

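VDR ChIP-seq peak lists of 2 libraries, 1 for each maternal diet, were used. Peaks were called by the authors with MACS2 on mm10, and SAMtools was also used, per the submitters' processing notes. Versions, thresholds, any input control and the pooling of embryos are not given in the sources used here. The deposited values of each peak are its fold enrichment over the local background and its -log10 p and -log10 q, that is the p-value and q-value of the caller. Peaks were listed down to a -log10 q of 2.00 (normal diet) and 2.01 (deficient diet). In the normal-diet list the end and score were joined in 1 field and were separated, and 1 line was unusable.

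From these values the whole number of fragments at each summit (pileup) and the local background were computed, since fold enrichment and -log10 p together fix both under a Poisson model. Gene spans came from RefSeq (GRCm38.p6). That table has no strand, which was taken from the promoter table where a gene was in it. A peak belonged to a gene when its summit lay in the span or within 10 kb, and peaks of the lists were shared when they overlapped by at least 1 bp. Protein-coding genes in 4 length classes (under 10 kb, 10 to 50 kb, 50 to 200 kb, 200 kb and over) served as background in place of random genes matched on length. Intervals are 95% exact Poisson or Clopper-Pearson intervals for counting error. No test was possible with 1 library per diet.

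Genes with values are those with shared peaks, a summit within 1 kb of an end, the most or densest peaks or the strongest peaks, and the remaining genes are given by their counts and ranges. Of the other pathway genes, at most 6 with shared peaks were to be named, by -log10 q, and some of these are not reported here. The genes and lists were chosen with earlier results of these data known. Alternatives changed the window, the strength threshold, the list length, the overlap rule and the distance to an end. Python 3.11.15, numpy 2.4.6, pandas 2.3.3, scipy 1.17.1 and matplotlib 3.10.9 were used, and the counting was tested on simulated peaks.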

Additional observations from a re-analysis of the deposited data

How the results depend on the processing

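Of 76 values recomputed for 12 results, 44 stayed and 32 moved, where a count of genes stayed if it was within 1.5 times the reported one and a density or percentage if it lay inside the counting interval of the reported one. Most moves follow by construction from fewer peaks being counted. Among peaks of -log10 q 5 or more, 21 genes had a normal-diet peak, 20 a deficient-diet peak and 10 both, the densities were 0.346 and 0.37 per 100 kb, the deficient-diet share of peaks was 51.7%, shared peaks were 6.9% of the normal-diet list's and 6.45% of the other's, and 5 and 0 genes had a summit near an end. At a fold enrichment of 4 or more, 13 genes had a deficient-diet peak and 10 both, the densities were 0.776 and 0.167, the deficient-diet share was 17.7%, 0% of the peaks of either list were shared and deficient-diet summits lay near an end at 0 genes. With the deficient-diet list cut to the length of the other, its density was 1.27, its share 55.2%, 14% of normal-diet peaks were shared and its summits lay near an end at 4 genes. In windows of all protein-coding genes the deficient-diet share was 51.5%, 19.7% and 49.1% at these 3 settings in turn. A window of 50 kb gave a normal-diet density of 1.27. The shared percentages of normal-diet and deficient-diet peaks were 14% and 6.78% with an overlap of 50% of both peaks, 12.8% and 6.21% with summits within 100 bp, and 33.7% and 17.5% within 1 kb. Within 3 kb of an end, 17 genes had a summit in each list. The share of all protein-coding genes with a summit near an end was not computed at any of these settings. Nor were the shares of all protein-coding genes with a normal-diet peak, a deficient-diet peak or both. The changed counts of genes are therefore not read as a trait of the genes examined here. Among peaks at the genome-wide background, 46.7% of deficient-diet peaks at these genes lay above the median -log10 q of the whole list, against 39% of all those at these genes, and the cause was not tested. The like share over all deficient-diet peaks at that background was not computed, so the rise is not read as a trait of these genes. Leaving out summits inside another protein-coding gene, an alternative chosen after seeing the data, left 75 normal-diet and 159 deficient-diet peaks. No paired analysis was possible because there is a single library for either diet, and for the same reason no library could be left out. The unequal background limits every comparison of counts between the lists.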
